A study of Mus musculus with 6 samples.

Results

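Peritoneal exudate cells of mice without NF-IL6 (KO) were compared with those of wild-type mice (WT), both untreated, by 1 Affymetrix array a side. The 2 arrays were chosen by their labels out of 6 in the series, and all 12422 probe sets other than the Affymetrix controls entered. Both samples carry the strain label C57BL/6, and the labels call the cells both peritoneal exudate cells and peritoneal macrophages. The other 4 arrays hold KO and WT cells given lipopolysaccharide (LPS) with interferon-γ, and untreated and stimulated cells of a knock-in line labelled KI(LAP), here KI. The labels give 12 h of stimulation for KO and KI and no time for WT. They give no age, sex, elicitation or number of animals, and do not say whether an array holds 1 animal or a pool.

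NF-IL6, the product of Cebpb, is now called C/EBPβ. This transcription factor of the leucine-zipper class binds DNA as a dimer with itself or with other members of the C/EBP family. It is made in activating forms, of which LAP is one, and in a short inhibitory form. In macrophages it is known for its part in the expression of acute-phase proteins, cytokines and antibacterial genes, and in other cells also for control of growth and differentiation.

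With 1 array in each group, every difference is given by size and none has an error or a p-value. Signals are MAS5 intensities on a linear scale. Values under the 40th percentile of all signals, a floor of 98.0, were set to that floor before log2 was taken. A difference is the log2 signal in KO minus that in WT, and a gene was counted as higher or lower where it reached at least 1, a 2-fold ratio. Where one of the signals was under the floor, the fold is a lower bound. RNA of a mixed cell preparation was measured, so fewer cells of a type and less RNA per cell cannot be told apart.

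Macrophage markers were bright on both arrays. Of 18 macrophage identity genes above the floor, 2 were higher (11.1%, against 7.14% of all genes) and 0 lower in KO. The summed signal of the list was 173453 in KO and 187139 in WT. Lyz2, the lysozyme of myeloid cells, had a signal of 19113 in KO and 19989 in WT. Adgre1, which encodes the F4/80 antigen, had 3056 in KO and 2260 in WT. The WT array was at the extreme of the 6 in several technical measures. Its 19 negative-control probe sets were bright: their median was 23.7 on the KO array, 49.8 on the WT array and 17.8 to 34.8 on the other 4, and WT was above KO in 19 of 19. Above the floor were 61.2% of probe sets in KO and 65.8% in WT, the highest share of the 6. The 5′ to 3′ signal ratio of actin was 0.882 in KO and 0.850 in WT, and that of Gapdh was 1.05 in KO and 0.962 in WT, with WT the lowest of the 6 in both. The part of these array differences in the results below was not tested.

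Cebpb itself had a signal of 12.7 in KO and 5492 in WT, with 2284 on the untreated KI array. The KO value was under the floor, and the gene was at least 56.0-fold lower in KO than in WT. Where its probe set lies relative to the deleted part of the gene was not stated. The other C/EBP genes stayed within 1 of WT. Cebpa, which encodes C/EBPα, had 11811 in KO and 7986 in WT (0.56 on the log2 scale). Cebpd had 1223 in KO and 992 in WT (0.30), Cebpg had 794 in KO and 736 in WT (0.11), and Ddit3, an inhibitory member that responds to stress, had 269.5 in KO and 363 in WT (-0.43).

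Either array put 8721 probe sets above the floor, of which 589 (6.75%) were higher and 402 (4.61%) lower in KO. With 1 probe set a gene, 456 of 6388 genes (7.14%) were higher and 283 (4.43%) lower, around a median of -0.07. Of all calls on probe sets, 59.4% were thus on the higher side. This split was not stable: it was 72.4% with each array centred on its median and 64.8% after quantile normalization, but it turned to 39.1% with the floor at the 20th percentile and 40% with log2(signal + 32) and no floor. One of the 2 arrays was under the floor for 102 of the 456 higher genes and 104 of the 283 lower genes. Cebpb, Saa3 and Slpi, on the lower side, differed more than any gene on the higher side, while the other 17 named lower genes differed less than each named higher gene. The 20 largest among bright genes spanned 2.18-fold to at least 56.0-fold on the lower side, and 3.84-fold to at least 5.90-fold on the higher side.

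**Figure D1:**
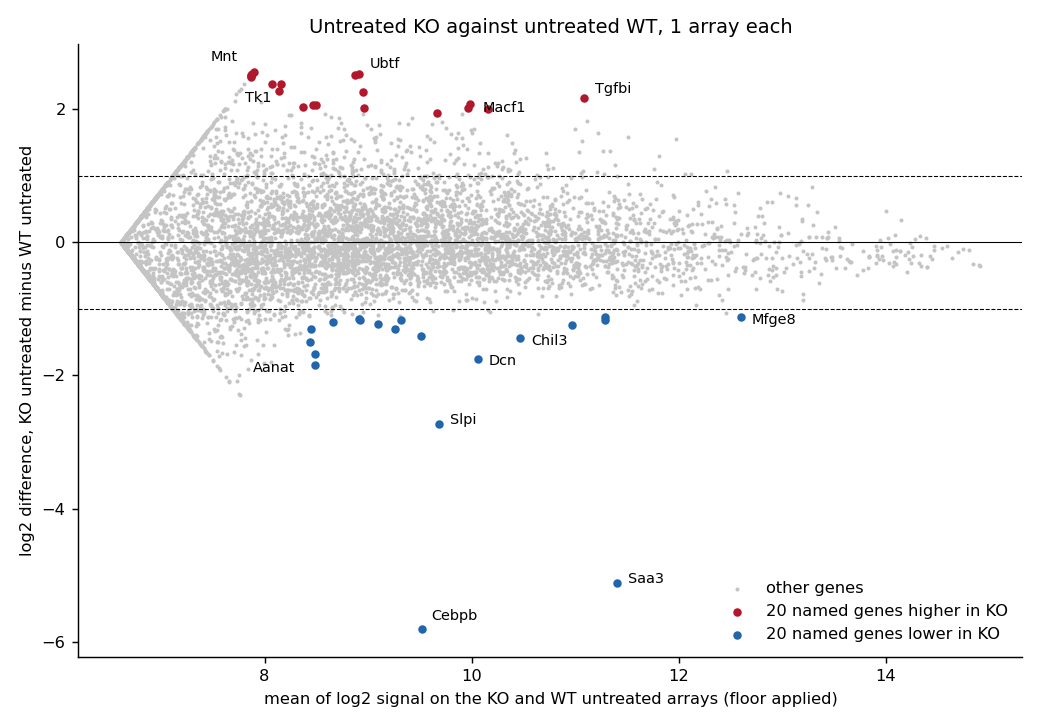
Each point is 1 of 6388 genes, with the mean of its log2 signals on the untreated KO and WT arrays on the horizontal axis and the log2 difference, KO minus WT, on the vertical axis; dashed lines mark differences of 1 and -1. Cebpb and Saa3 lie below -5, Slpi lies at -2.73, and no gene lies above 2.56.

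After Cebpb, the largest differences on the lower side were those of Saa3 and Slpi. Saa3, an acute-phase serum amyloid A protein that macrophages make, had a signal of 459.8 in KO and 16042 in WT, and was 34.9-fold lower. The KI array, at 2639, lay between them. Slpi, a secreted inhibitor of neutrophil proteases, had 319.9 in KO and 2119 in WT, 6.62-fold lower, with 821 in KI. Other probe sets of Slpi gave smaller differences on the same side, with 739 in KO and 1497 in WT in one (-1.02) and 119.9 in KO and 219.8 in WT in another (-0.87), and a further one was under the floor on both arrays. Hp, haptoglobin, which captures free haemoglobin, had 449 in KO and 1191 in WT (-1.41). Clu, the extracellular chaperone clusterin, had 207 in KO and 582 in WT (-1.49), and another of its probe sets had 48.8 in KO and 141 in WT (-0.52). Chil3, a chitinase-like lectin of activated macrophages, had 862 in KO and 2329 in WT (-1.43), and only 123 in KI.

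The promoters of Saa3 and Slpi are shown because these genes had the largest differences after Cebpb, and because both hold the core TTGCNNAA of C/EBP binding sites, read on either strand as TTGCNNAA or TTNNGCAA. Capitals mark it. The sequences are from RefSeq on build GRCm38.p6, 250 bases before to 50 after the annotated start, on the strand of the gene. The Saa3 window is chr7:46715627-46715926 on the minus strand, with the core starting 99 bases before the start. The Slpi window is chr2:164356458-164356757 on the minus strand, with the core starting 241 bases before it.
Saa3: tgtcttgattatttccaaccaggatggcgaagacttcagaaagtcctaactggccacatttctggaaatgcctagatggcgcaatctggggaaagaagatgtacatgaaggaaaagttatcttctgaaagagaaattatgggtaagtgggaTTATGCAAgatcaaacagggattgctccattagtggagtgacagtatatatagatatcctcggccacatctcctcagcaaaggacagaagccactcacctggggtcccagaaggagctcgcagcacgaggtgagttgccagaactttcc
Slpi: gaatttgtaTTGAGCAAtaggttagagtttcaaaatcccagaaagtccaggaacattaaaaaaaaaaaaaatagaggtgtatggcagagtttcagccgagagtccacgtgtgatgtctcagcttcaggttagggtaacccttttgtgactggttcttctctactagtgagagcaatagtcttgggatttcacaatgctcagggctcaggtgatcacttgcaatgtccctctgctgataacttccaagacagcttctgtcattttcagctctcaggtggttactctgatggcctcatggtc

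Among the 20 named lower genes, 4 of 14 promoters in the table (28.6%) held the core: those of Saa3, Slpi, Cd302 and Maoa. Among the 20 named higher genes it stood in 3 of 30 promoters (10%), those of Man1b1, Ubtf and Adam15. Over all genes lower by at least 1, the share was 28 of 258 promoters (10.9%), and over those higher by at least 1 it was 41 of 534 (7.68%). It was 601 of 6600 (9.11%) for all genes above the floor and 3547 of 32851 (10.8%) for the whole table. A match describes these letters in this window and is no sign of binding.

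The rest of the 20 named lower genes had varied roles. Dcn, the matrix proteoglycan decorin, had 582 in KO and 1967 in WT (-1.76). Cd302, a C-type lectin receptor, had 389.9 in KO and 966 in WT (-1.31), with 891 in KI. Lst1, a transcript of leukocytes, had 1298 in KO and 3081 in WT (-1.25). Mfge8, a secreted bridge between phagocytes and apoptotic cells, had 4199 in KO and 9143 in WT (-1.12). The calcium-binding protein S100a1 had 1668 in KO and 3741 in WT (-1.17), and Gadd45b, induced by stress, had 1694 in KO and 3690.2 in WT (-1.12). Both of these probe sets, like that of Cadm1 below, carry the suffix that Affymetrix gives to families of similar transcripts, so their values are uncertain. A Gadd45b probe set without that suffix had 923 in KO and 2263 in WT (-1.29). Of S100a1, one without it had 73.8 in KO and 79.6 in WT, under the floor on both arrays. Another of S100a1 had 69.4 in KO and 226 in WT (-1.21). Maoa, which breaks down monoamines, had 323 in KO and 720.0 in WT (-1.16), and Lsm7, part of the ring that binds U6 RNA, had 426 in KO and 953 in WT (-1.16). The other members were Aanat (-1.84), Prp2 (-1.68), Pspn (-1.30), Capn10 (-1.17) and the globin sequences Hba-ps3 (-1.23) and Hbb-b2 (-1.19), which have near-identical copies. Further probe sets of Aanat, Capn10 and Maoa were under the floor on both arrays. Another of Prp2 had 122 in KO and 178 in WT (-0.55). WT had the highest signal of all 6 arrays for 12 of these 20 genes, against 35.3% of all 6388 genes. The choice of genes high in WT over KO favours this.

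Of the 20 named higher genes, 4 were under the floor in WT. Mnt, a repressor that competes with Myc for its partner Max, had a signal of 578 in KO and 88.5 in WT, at least 5.90-fold higher. Ubtf, a factor for transcription of ribosomal RNA, had 1161 in KO and 201 in WT, 5.78-fold higher. Tgfbi, a secreted matrix protein named for its induction by TGF-β, had 4590.0 in KO and 1025 in WT, 4.48-fold higher. Its KI value was 1003, close to that of WT. Adam19, a membrane metalloprotease, had 617 in KO, 118 in WT and 48.2 in KI (2.38). For these last 2 genes KO alone was high among the untreated arrays.

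Most other higher genes had another pattern, in which WT alone was low. Dctn1, the large dynactin subunit, had 1085 in KO, 227 in WT and 1134 in KI (2.26). Macf1, a crosslinker of microtubules and actin, had 2007 in KO, 495 in WT and 1914 in KI (2.02). Uhmk1, a kinase, had 1596 in KO, 416 in WT and 2365 in KI (1.94), but another of its probe sets pointed the opposite way, with 308 in KO and 583 in WT. Ppp1r15b, a subunit of the phosphatase for the translation factor eIF2α, had 739 in KO, 178 in WT and 1132 in KI (2.06). Man1b1, an endoplasmic reticulum mannosidase, had 555 in KO, 98.8 in WT and 503 in KI (2.49). In 14 of the 20 genes the untreated WT array was the lowest of all 6, and in 16 the untreated KO array was the highest. Over all 6388 genes these shares were 15.7% and 18.8%, but the choice of genes high in KO over WT favours both extremes. The comparison of KI with WT shares the WT array with that of KO with WT, and its differences are therefore not independent of it.

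The remaining named higher genes were D17H6S56E-5 (2.52), Acin1, linked to chromatin condensation in apoptosis (2.52), the formin Fmnl1 (2.51), Vps37b, part of the ESCRT-I sorting complex (2.50), Tk1 (2.38), Hmgb2 (2.28), the ubiquitin ligase Arih1 (2.07), the metalloprotease Adam15 (2.06), Wdr5, a subunit of histone methyltransferase complexes (2.04), AU040320 (2.01) and the adhesion molecule Cadm1 (1.995). A second Fmnl1 probe set had 290.5 in KO and 305 in WT. For D17H6S56E-5 another probe set had 12.6 in KO and 101.5 in WT, on the opposite side. Another for Arih1 had 503 in KO and 388 in WT (0.37), and further ones for Cadm1 gave 1.40 and 0.53. Further ones for Tk1, Tgfbi and Uhmk1 were under the floor on both arrays.

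**Figure D2:**
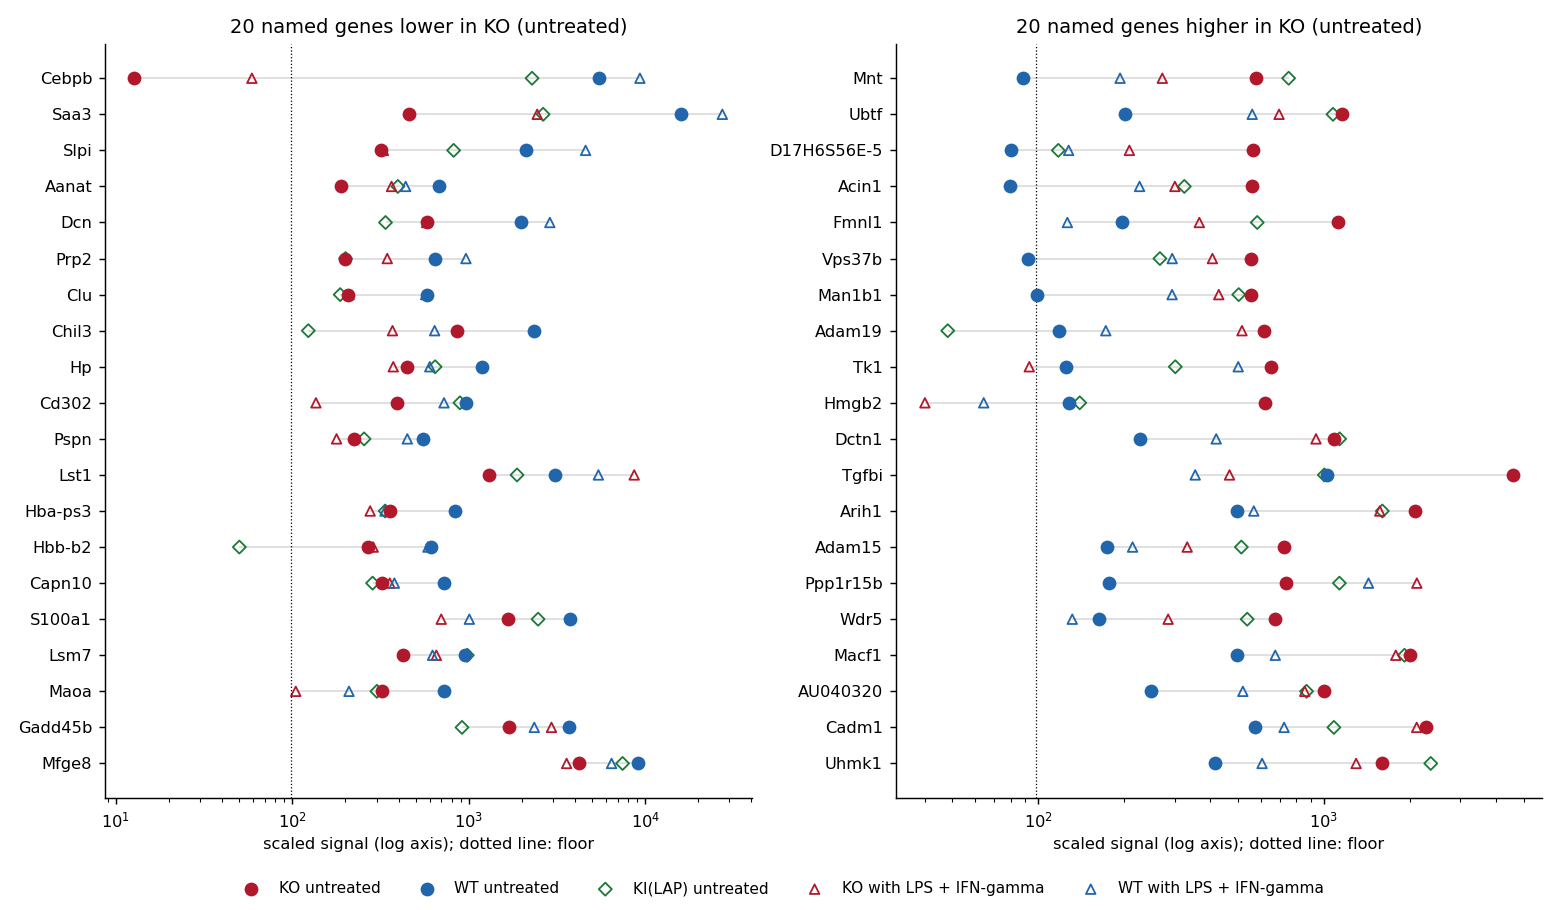
Scaled signal on a log axis for the 20 named genes lower in KO (left) and the 20 higher (right), with filled circles for untreated KO (red) and WT (blue), diamonds for untreated KI and triangles for the stimulated KO and WT arrays; the dotted line is the floor of 98.0. For 14 of the 20 higher genes untreated WT is the lowest of the 6 arrays, and Cebpb is under the floor only on the KO arrays.

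The stimulated KO and WT arrays share no array with the untreated pair, so the untreated differences were looked up there. Whether the untreated and stimulated cells came from the same animals is not in the labels. The lookup can therefore not be read as an independent repeat. Of the 283 lower genes, 248 were above the floor in the stimulated pair, where 44 (17.7%) were again lower by at least 1 and 3 (1.21%) were higher. Of the 456 higher genes, 422 were above the floor there, and 44 (10.4%) were again higher and 10 (2.37%) lower. Over the 5700 genes above the floor in both pairs, 3.63% were lower and 2.93% higher in stimulated KO. The median stimulated difference was -0.29 over the 248 lower genes, 0.33 over the 422 higher ones and -0.03 over the 5700. Among the 20 named lower genes 17, with Cebpb itself, were on the same side in the stimulated pair, 10 of them by at least 1. Among the 20 named higher genes 18 were on the same side, 8 of them by at least 1, and Tk1 was past 1 on the other side.

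The genes lower in both states included Saa3 and Slpi. Saa3 had 2443 in stimulated KO and 27344 in stimulated WT cells (-3.48), and Slpi had 328 in stimulated KO and 4592 in stimulated WT (-3.81). Cd302 had 136 in stimulated KO and 724 in stimulated WT (-2.41). Other genes were near the floor when untreated and far apart after stimulation. Marco, a scavenger receptor for bacteria, had 12.1 in KO and 202 in WT when untreated, at least 2.06-fold lower, and 256 in KO and 2055 in WT when stimulated. Clec4e, the receptor Mincle, had 61.9 in KO and 221 in WT when untreated, and 191 in KO and 1886 in WT when stimulated. Ptges, which makes prostaglandin E2, had 60.6 in KO and 199.5 in WT when untreated, and 242 in KO and 2525 in WT when stimulated. The cytokine Il1a had 115 in KO and 232 in WT when untreated, and 532 in KO and 3956 in WT when stimulated. On the higher side, Ptger4, a receptor for prostaglandin E2, had 289 in KO and 49.6 in WT when untreated, and 1112 in KO and 185 in WT when stimulated. Car2, a carbonic anhydrase, had 259.6 in KO and 76.0 in WT when untreated, and 5445 in KO and 1240 in WT when stimulated. Gatm, the first enzyme of creatine synthesis, had 3632 in KO and 1271 in WT when untreated, and 3443 in KO and 1467 in WT when stimulated, with near equal differences of 1.51 and 1.23.

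Genes listed from the literature as C/EBPβ targets were split. Of 26 above the floor, 8 (30.8%) were lower and 3 (11.5%) higher in KO, against 4.43% and 7.14% of all genes, and the median was -0.18. In the stimulated pair the median of the list was -1.09. The 8 lower genes were Saa3, Chil3, Hp, Marco, Clec4e and Ptges with Serpinb2, an inhibitor of plasminogen activators, and S100a8, a subunit of calprotectin. Serpinb2 had 64.5 in KO and 478 in WT, at least 4.88-fold lower, and S100a8 had 195 in KO and 507 in WT (-1.38). The 3 higher genes were Itgam, the integrin chain CD11b, with 1563 in KO and 474 in WT (1.72), Tnf with 467 in KO and 206 in WT (1.18), and the mannose receptor Mrc1 with 659 in KO and 321 in WT (1.04). Arg1, the arginase of macrophages, had 3674 in KO and 3949 in WT when untreated, and 388 in KO and 3320.1 in WT when stimulated. Cd14, the LPS co-receptor, had 5258 in KO and 6867 in WT when untreated, and 2845 in KO and 7915 in WT when stimulated. For both genes the larger gap between genotypes was thus that of the stimulated pair.

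Some genes of mitosis were higher in KO. Of 34 above the floor, 12 were higher by at least 1 (35.3%, against 7.14% of all genes), 22 within 1 and 0 lower, and their median was 0.73, against -0.07 for all genes. The summed signal of the list was 18475 in KO, 9711 in WT and 8305 in KI. The untreated KO array was the highest of all 6 for 28 of the 34 genes, against 18.8% of all genes. Birc5, or survivin, of the chromosomal passenger complex, had 795 in KO, 229 in WT and 148 in KI (1.80). Prc1, which bundles microtubules of the central spindle, had 438 in KO, 100.4 in WT and 221 in KI (2.13). Kif20a, a kinesin of cell division, had 491 in KO, 153 in WT and 59.8 in KI (1.68). Racgap1, needed for cytokinesis, had 355 in KO, 70.2 in WT and 68.3 in KI, and was at least 3.63-fold higher in KO than in WT. Stmn1, which destabilises microtubules, had 1822 in KO, 568 in WT and 833 in KI (1.68), and Hmgb2, a chromatin protein, had 620.1 in KO, 128 in WT and 139.7 in KI (2.28). In each of these 6 genes KO was the highest untreated array.

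The kinase that drives mitosis and its partners showed the same order. Cdk1 had 712 in KO and 274.5 in WT (1.38), its cyclin Ccnb2 had 1580.3 in KO and 536 in WT (1.56), and Ccna2 had 998 in KO and 355 in WT (1.49). Aurkb, a kinase of chromosome segregation, had 302 in KO and 104.5 in WT (1.53), and Mad2l1, of the spindle checkpoint, had 620.4 in KO and 218 in WT (1.51). Not every proliferation marker went this way. Mki67, which encodes the Ki-67 antigen, had 196 in KO and 292 in WT (-0.57), and Plk1 had 510.2 in KO and 458 in WT (0.16). Which cells of the preparation carried these transcripts was not tested.

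Genes of S phase were less uniform. Of 27 above the floor, 6 were higher (22.2%, against 7.14% of all genes) and 2 lower (7.41%, against 4.43%), with a median of 0.47. Tk1, the thymidine kinase of dividing cells, had 652 in KO, 125 in WT and 302 in KI (2.38). Pclaf, a partner of the replication clamp, had 584 in KO, 155 in WT and 176 in KI (1.91). Rrm1, a ribonucleotide reductase subunit, had 309 in KO, 33.8 in WT and 302 in KI, at least 3.15-fold higher in KO than in WT. Dnmt1, the maintenance DNA methyltransferase, had 1611 in KO, 582 in WT and 1649 in KI (1.47). The lower genes were Chaf1b, of the chromatin assembly factor, with 95.4 in KO and 354 in WT, and Tipin, of the replication fork, with 116 in KO and 288 in WT (-1.31). For S phase as a list the median of KO minus KI was -0.06, and for mitosis it was 0.99. KI was thus near KO in the S phase list and below KO in the mitosis list.

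In the stimulated pair the medians did not show the gap, at -0.06 for mitosis and -0.25 for S phase. These medians cover the genes above the floor when untreated. A member under it on both stimulated arrays, such as Hmgb2 with 40.1 in KO and 64.4 in WT, counts as 0 there. The summed signal of the mitosis list was 4877 in stimulated KO and 5846 in stimulated WT. The part of the floor in the missing gap was not tested. Birc5 had 60.3 in stimulated KO and 99.4 in stimulated WT. Cdk1 had 48.0 in stimulated KO and 209 in stimulated WT, and Cks1b, which binds that kinase, had 98.0 in stimulated KO and 229 in stimulated WT. Both of these genes, like Tk1, were past 1 in opposite directions in the untreated and stimulated pairs. The difference between the states could not be tested with 1 array in each group.

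**Figure D3:**
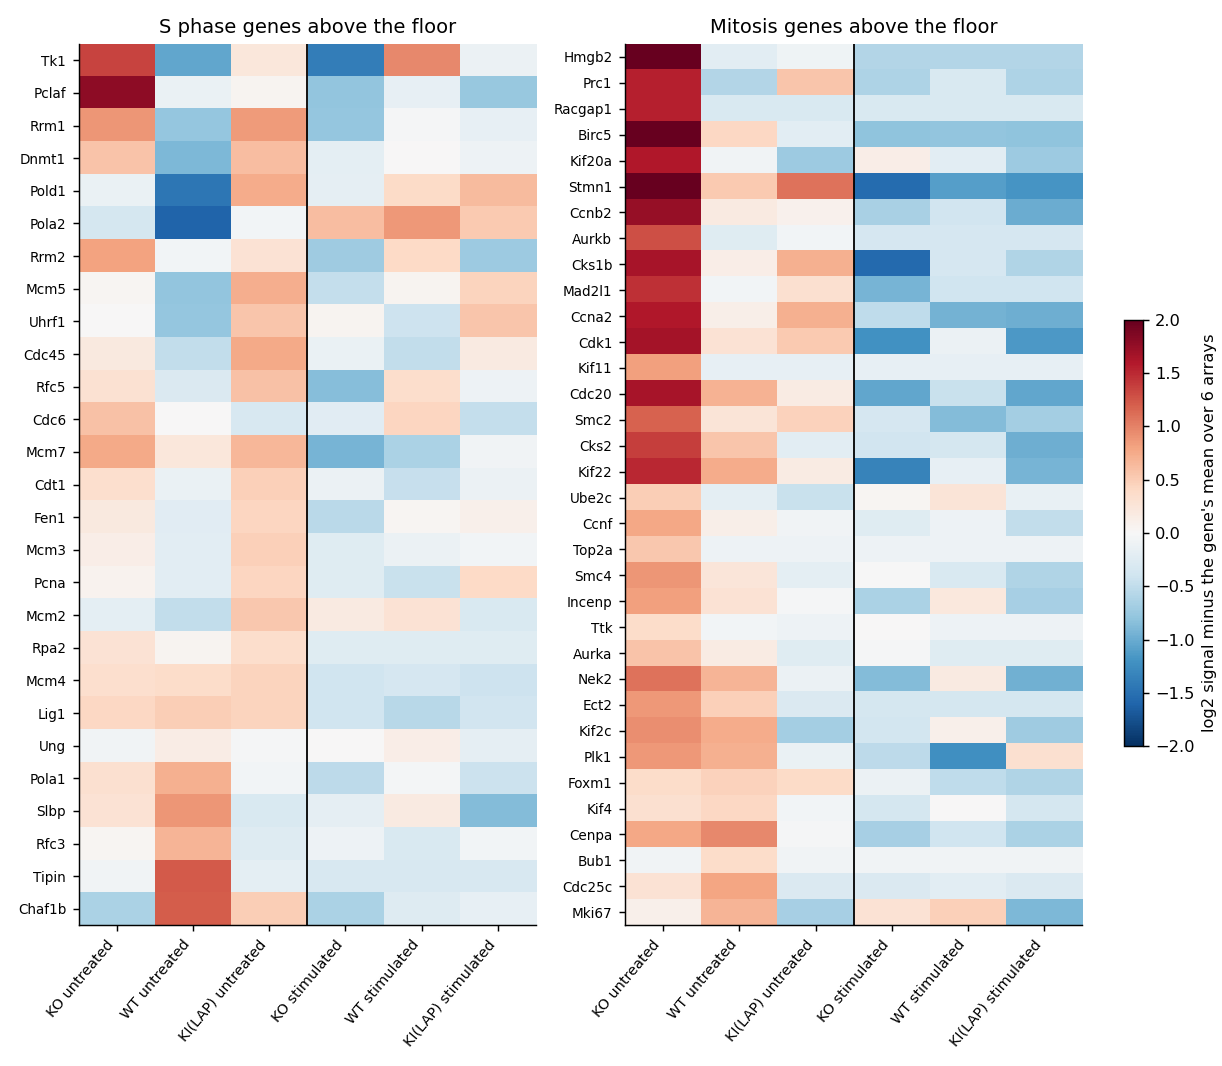
Each row is a gene of the S phase list (left, 27 genes) or the mitosis list (right, 34 genes) above the floor on an untreated array, each column 1 of 6 arrays, and colour the log2 signal minus the mean of that gene over the arrays; rows are sorted by KO minus WT when untreated. The untreated KO column is the highest of 6 in 28 of 34 mitosis genes, while S phase genes are often as high in untreated KI.

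Several receptors and adhesion molecules were higher in KO. Of 23 cytokine receptors 5 were higher (21.7%, against 7.14% of all genes) and 0 lower, with a median of 0.39. Csf2rb, the shared β chain of the GM-CSF, IL-3 and IL-5 receptors, had 3699 in KO and 1137 in WT (1.70). Il10ra, the IL-10 receptor chain, had 608 in KO and 175 in WT (1.80). Il6ra and Il6st, which together form the receptor for interleukin 6, had 538 and 441 in KO, and 160.0 and 127 in WT (1.75 and 1.79). Csf2rb2 had 3412 in KO and 1644 in WT (1.05), but it is a near copy of Csf2rb and the 2 may share signal. Of 20 integrins and adhesion genes 3 were higher (15%, against 7.14% of all genes) and 0 lower, with a median of 0.40. These were Itgam, described above, Itga5, the fibronectin receptor chain, with 303 in KO and 52.7 in WT, and Itgax, the CD11c chain, with 1799 in KO, 816 in WT and 7301 in KI (1.14).

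Among 10 genes of recruited monocytes, 3 were higher (30%, against 7.14% of all genes) and 1 lower (10%, against 4.43%) in KO. Ccr2, the receptor by which monocytes leave the marrow, had 5625 in KO, 2285 in WT and 649 in KI (1.30), and 860.3 in KO and 267 in WT when stimulated (1.69). Klf4, a factor of monocyte differentiation, had 695 in KO and 229 in WT (1.60), and 658 in KO and 243 in WT when stimulated (1.43). Nr4a1, needed for patrolling monocytes, had 257 in KO and 84.7 in WT. The lower gene was Chil3. Of 17 genes of resident peritoneal macrophages 4 were lower (23.5%, against 4.43% of all genes) and 0 higher, with a median of -0.38. Saa3 and Serpinb2 stand in this list too. Cxcl13, a B cell chemokine, had 10 in KO, 257 in WT and 11.9 in KI, and Cd5l, a secreted protein of resident macrophages, had 800.2 in KO and 1622 in WT (-1.02).

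Some genes of mesothelial cells and fibroblasts were lower in KO. Of 21 above the floor, 6 were lower (28.6%, against 4.43% of all genes), 15 within 1 and 0 higher, with a median of -0.68. Several of these genes were dim, and in the dimmest of 4 bins of all genes 8.52% were lower, with a median of -0.21. In the stimulated pair the median of the list was -0.84. The summed signal of the list was 4823 in KO, 8790 in WT and 6078 in KI when untreated, and 4798 in KO and 10537 in WT when stimulated. Sparc, a matrix glycoprotein, had 91.3 in KO and 369.6 in WT, at least 3.77-fold lower. Col3a1, of type III collagen, had 124 in KO and 360.0 in WT (-1.54), and Acta2, the actin of smooth muscle, had 85.0 in KO and 268 in WT. Pdgfra, the growth factor receptor of fibroblasts, had 168 in KO and 343 in WT (-1.03). Wt1, which marks mesothelium, had 65.3 in KO and 189 in WT, and stayed within 1 with the floor applied. The part of this cell content in the genes lower in KO, of which Dcn is a member of the list, was not tested.

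Markers of other cell types gave mixed counts. The summed signal of 17 B cell genes was 13850 in KO and 13792 in WT, with none of them past 1. Of 8 T cell genes 0 were past 1, with a median of -0.33. Of 12 neutrophil genes 2 were lower, S100a8 and Camp (16.7%, against 4.43% of all genes), with a median of -0.12 that was -0.45 and -0.46 with the floor at the 20th and 60th percentile, and the summed signal was 3296 in KO and 4253 in WT. Camp, the cathelicidin peptide of neutrophil granules, had 118 in KO and 372 in WT (-1.66). Of 8 mast cell genes 1 was lower (12.5%, against 4.43% of all genes) and 7 were within 1, with a median of -0.21. The summed signal of that list was 2963 in KO and 3249 in WT. The lower gene was Cpa3, a mast cell protease, with 65.3 in KO and 288 in WT. The eosinophil list had only 3 genes above the floor, of which 2 were lower (66.7%, against 4.43% of all genes). Its median of -1.001 was -0.32 with a pseudocount and no floor or filter. The summed signal of that list was 381 in KO and 720.3 in WT. The platelet list also had 3 genes above the floor, none past 1. Its median of -0.53 was -1.08 with the floor at the 20th percentile.

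No member passed 1 in several lists. None of 11 MHC class II genes, 21 interferon response genes, 37 lysosomal genes or 30 proteasome genes was past 1, with medians of 0.08, 0.17, -0.05 and -0.22. Of 58 oxidative phosphorylation genes 0 were higher and 1 lower, but 46 lay below 0 with a median of -0.27, while in the stimulated pair the median was 0.03. Of 27 cytosolic ribosome genes 23 lay below 0, with a median of -0.22. Over all 6388 genes above the floor 3517 lay below 0, with a median of -0.07. Of 20 genes of the unfolded protein response 3 were higher (15%, against 7.14% of all genes). One of them was Ppp1r15a, the stress-induced relative of Ppp1r15b, with 377 in KO, 102 in WT and 253 in KI (1.89). Of 27 genes of lipid uptake and efflux 3 were higher (11.1%, against 7.14% of all genes) and 2 lower (7.41%, against 4.43%). Fabp5, a fatty-acid-binding protein, had 3867 in KO and 8116 in WT (-1.07), and Abca1, which exports cholesterol, had 1052 in KO and 488 in WT (1.11), with 401 in KO and 825 in WT when stimulated.

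**Figure D4:**
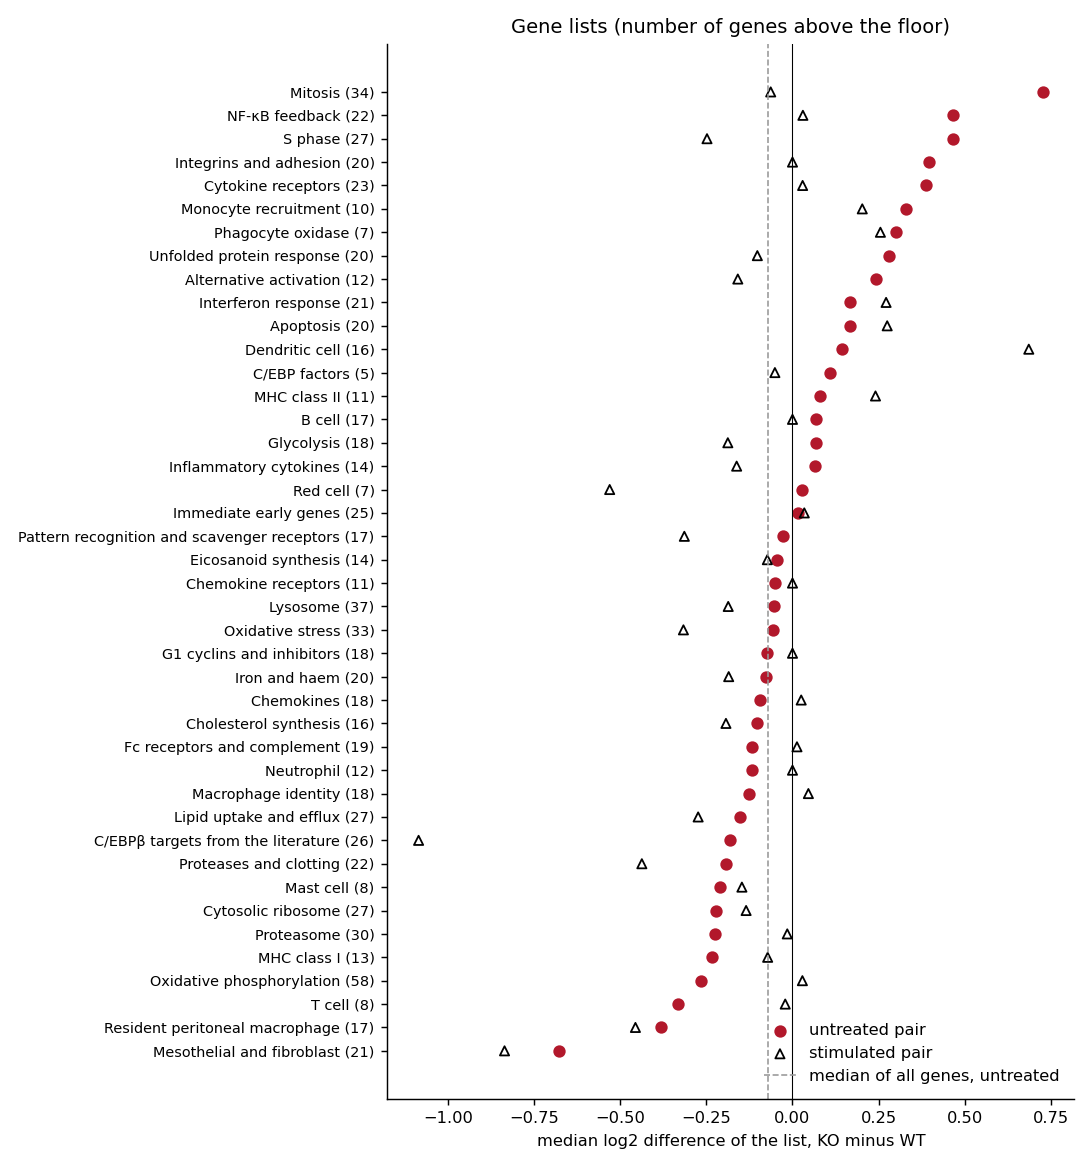
Median log2 difference, KO minus WT, of each gene list with at least 5 genes above the floor, as red circles for the untreated pair and triangles for the stimulated pair; the dashed line is the median of all genes when untreated, -0.07. Mitosis is at the top at 0.73, next to -0.06 when stimulated, and mesothelial and fibroblast genes are at the bottom at -0.68, next to -0.84. Genes under the floor on both stimulated arrays count as 0 in the stimulated medians.

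The differences moved with the genomic span of the gene, from its start to its end with introns. When 6381 genes with a span were divided into 5 equal bins, the share higher in KO was 2.82% in the bin of the shortest genes and 3.76%, 6.19%, 8.54% and 14.4% in the next ones. The share lower was 6.11% in the bin of the shortest genes and 3.92% in that of the longest. The median difference was -0.26 for the shortest and 0.17 for the longest genes. For KI minus WT, which shares the WT array, the medians were -0.38 and 0.04, and for KO minus KI they were 0.07 and 0.01. For the stimulated pair they were -0.07 and 0.00 over the same genes. Of all 6388 genes 5700 were above the floor in the stimulated pair too, and the rest count as 0 there. The median span was 39598 bases for the 456 higher genes and 14718 bases for the 283 lower ones. The 5′ to 3′ signal ratio of Gapdh was 1.05 in KO, 0.962 in WT and 1.12 in KI when untreated, and the part of RNA quality or of the WT array in this pattern was not tested.

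**Figure D5:**
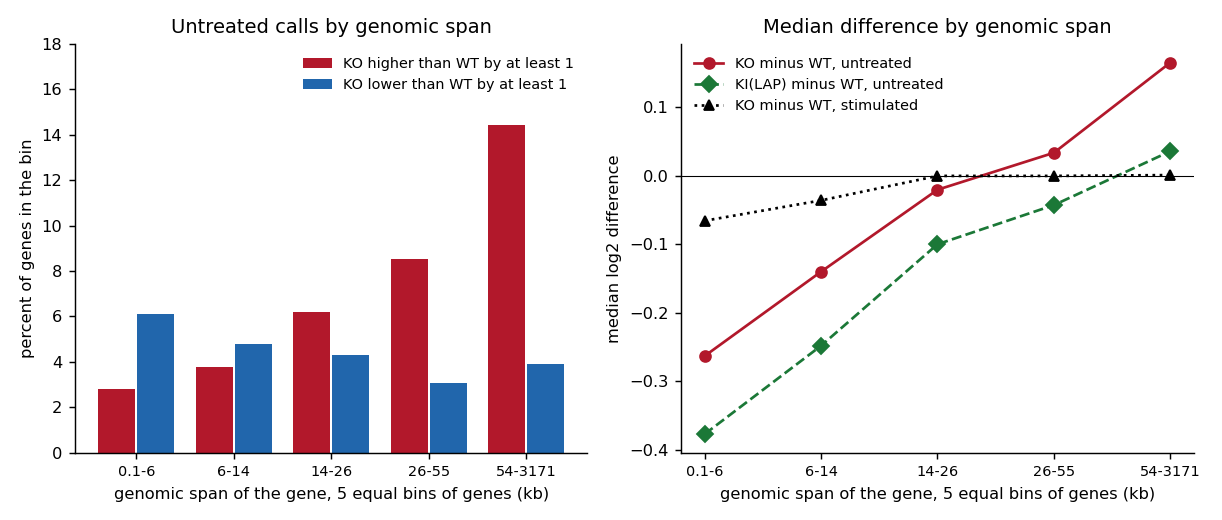
Left, percent of genes higher (red) or lower (blue) in untreated KO by at least 1, by 5 bins of genomic span in kilobases; right, median log2 differences in the same bins for KO minus WT untreated, KI minus WT untreated and KO minus WT stimulated. The share of higher genes is 2.82% for the shortest genes and 14.4% for the longest, and the stimulated pair stays within -0.07 and 0.00. Genes under the floor on both stimulated arrays count as 0 in that pair.

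Where a gene had more than 1 probe set, the others could be read against its brightest. Other probe sets under the floor on both arrays, such as that of Tgfbi, show no difference and are not in these counts. The shares below therefore hold only for probe sets with a measurable signal. For 93 higher genes, 71 of 109 other probe sets (65.1%) were on the same side, against 43.7% of all 1366 such probe sets. Of the 109, 27 (24.8%) were past 1 on that side, against 7.03%. For 43 lower genes, 36 of 45 (80%) were on the same side, against 56.3%, and 7 (15.6%) were past 1, against 4.61%. The spread of the differences varied with the level. The SD of the difference over genes was 0.66 in the dimmest of 4 bins of mean signal, 0.76 and 0.59 in the next ones and 0.50 in the brightest. In the dimmest bin 6.83% of genes were higher and 8.52% lower, with a median of -0.21. In the next bin 10.5% were higher and 7.20% lower, and in the brightest 4.07% were higher and 0.689% lower. Dim genes were thus lower in KO more often than bright ones.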

How the data were processed

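Total RNA was extracted with Trizol, and 6 µg of it served to make biotinylated cRNA, per the labels' protocols. The authors deposited signal intensities on a linear scale for 12488 probe sets. The submitters' processing notes name MAS5, with no version or scaling target. Trimmed means (2% off each end) were 500.3 to 500.4 on all 6 arrays. Here the deposited intensities were scaled to the mean of these, floored at the 40th percentile and converted to log2 (Python 3.11.15, numpy 2.4.6, pandas 2.3.3). The 66 control probe sets were left out.

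Of 12422 probe sets, 10833 had 1 gene symbol in the platform annotation, 396 several and 1193 none; 10817 matched RefSeq genes of GRCm38.p6, with 0 symbols changed. A gene was represented by its brightest probe set over 6 arrays. List and span medians of the stimulated pair are over genes above the floor when untreated, and genes under it on both stimulated arrays count as 0. Named genes are the 20 largest differences in each direction among genes whose brighter array reached the 75th percentile (531.8), the C/EBP genes and up to 6 members of a list with the largest differences; other genes named were chosen after their values were seen. The 46 lists held 868 genes on the array. The comparison, members and lists were chosen with earlier results of these data known. No p-value was computed, with 1 array a side. The code was tested on simulated data. The number of arrays limits the precision. Alternatives were the floor, a pseudocount, quantile normalization, median centring, no rescaling, a stricter size and the mean of a gene's probe sets.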

Additional observations from a re-analysis of the deposited data

Results flagged for a closer look

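Tk1, the thymidine kinase of dividing cells, differed between the genotypes in opposite directions in the 2 states. Its signal was 652 in untreated KO and 125 in untreated WT cells, a log2 difference of 2.38. It was 93.0 in stimulated KO and 501 in stimulated WT cells, a difference of -2.35. With 1 array in each group, the difference between the states was not tested.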

How the results depend on the processing

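No paired analysis was possible because each group has 1 array and the labels number no replicates, and for the same reason no replicate could be left out. Counts of probe sets depended on how dim values were treated. Higher and lower in KO were 589 and 402, against 886 and 1379 with the floor at the 20th percentile, 270 and 55 at the 60th, 641 and 960 with log2(signal + 32) and no floor, and 179 and 74 for a difference of at least 1.5. The share of higher calls was 59.4%, against 39.1%, 83.1%, 40% and 70.8% in the same order. Centring on the median gave 731 and 279, and moved the median of all probe sets from -0.08 to 0.02. Genes past 1 on the same side in both states numbered 88, against 229 at the lower floor and 31 at the higher. Of 40 named genes, 38 stayed past 1 in all 7 alternatives run on them; Mfge8 was at -0.95 after quantile normalization and Uhmk1 at 0.51 with its probe sets averaged. The median of the mitosis list stayed within 0.73 and 0.84, that of the S phase list within 0.31 and 0.57, and that of the mesothelial and fibroblast list within -0.73 and -0.37. At the 60th percentile the NK cell, eosinophil and platelet lists gave no value. The cause of these shifts was not tested. Signals near the floor and single arrays both limit the counts.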

Other observations

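Some genes outside the named ones differed between the arrays in ways that bear on what the samples are. Xist, the RNA of the inactive X chromosome, had a signal of 104 in untreated KO, 127 in untreated WT and 473 in untreated KI cells, and 241 in KO, 641 in WT and 356 in KI cells when stimulated. Eif2s3y, a gene of the Y chromosome whose probe set belongs to a family of similar transcripts, had 456 in untreated KO, 149.5 in untreated WT and 3.40 in untreated KI cells, and 267 in KO, 82.4 in WT and 16.0 in KI cells when stimulated. Of the other Y genes, Kdm5d had 55.1 in untreated KO and 111 in untreated WT cells, and Uty was under the floor on all 6 arrays. The labels give no sex.

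Ifi202b, an interferon-inducible gene, had 432 in untreated KO and 934 in untreated WT cells (-1.11), and 3726 in KO and 3719 in WT cells when stimulated. On both KI arrays it was under the floor, at 7.1 untreated and 1.0 stimulated. All 6 samples carry the strain label C57BL/6, and the background of the lines was not tested.

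Of 18 glycolysis genes 2 were higher in KO (11.1%, against 7.14% of all genes) and 0 lower, with a median of 0.07. Hk2, an inducible hexokinase, had 766 in KO and 208 in WT (1.88), and Slc2a1, the glucose transporter GLUT1, had 807 in KO and 396 in WT (1.03). Stab1, a scavenger receptor for modified lipoproteins, had 1448 in KO and 424 in WT (1.77), and Bcl3, which modifies NF-κB at promoters, had 388 in KO and 110.4 in WT (1.82).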
